A study of Mus musculus with 19 samples.

Results

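The replication-dependent histone genes were examined in total RNA of visceral yolk sac (VYS) layers, fetal liver and cystic embryoid bodies (EBs). Members were taken by name: every gene symbol of the expression tables that starts with Hist1h, Hist2h, Hist3h or Hist4h, with the row of highest mean count standing for a symbol. This gave 68 genes, held in 76 rows, of 23337 symbols and 30455 rows in all. They comprised 6 genes for the linker histone H1 and 18 for H2A, 19 for H2B, 12 for H3 and 13 for H4, which form the nucleosome core. The Hist1 cluster on chromosome 13 held 54 of them, the Hist2 cluster on chromosome 3 held 10, Hist3 on chromosome 11 held 3 and Hist4 on chromosome 6 held 1. Of the Hist3 genes, Hist3h2bb-ps had no gene model in the RefSeq annotation of GRCm38.p6 and was placed there by its symbol alone. The other 67 members had a gene model.

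These genes supply the histones that package newly copied DNA. Their mRNAs accumulate in S phase, carry no introns as a rule, and end in a stem-loop bound by Slbp in place of a poly(A) tail. Npat, a target of cyclin E and Cdk2, activates their transcription. Libraries that select poly(A) therefore lose most of these mRNAs, whereas the libraries here were made from total RNA depleted of ribosomal RNA. Replacement variants such as H2afz and H3f3b are made outside S phase too, from ordinary polyadenylated mRNAs.

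Of 19 samples, 11 were RNA-seq libraries. VYS endoderm (ysE) and VYS mesoderm with its vessels were collected from FVB embryos at E9.25, with 2 libraries each. E12.5 FVB liver had 2 libraries, and E12.5 FVB ysE had 1. Each tissue sample was a pool of a litter, so its replicates were separate pools, while d10 and d15 of differentiation stood for the 2 libraries of each ES cell clone. Cystic EBs are hollow aggregates of differentiating ES cells grown without LIF, here from clone A9 (XY) and clone JN (XX), both of C57Bl/6x129 background and each a single line. Library chemistry was not the same throughout: 6 libraries (E9.25 ysE, E9.25 mesoderm, clone JN) used a dUTP method, 4 (clone A9, liver) used ScriptSeq and E12.5 ysE was the only non-stranded library. Comparisons were therefore made within 1 chemistry, and JN against A9 or E12.5 ysE against any other group is given as values only, since clone or stage and chemistry cannot be told apart there.

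Libraries held 40453779 to 169981821 counts over transcripts. Labels were checked against marker genes: all 5 mesoderm and vessel markers and all 6 erythroid markers were lower in ysE than in mesoderm, and 4 of 5 ysE markers were higher. Summed RPKM (reads scaled to transcript length and library size) of the ysE markers was 9429 and 10763 in E9.25 ysE but 121 and 443 in clone JN. All 3 liver markers were higher in liver than in clone A9, but their summed RPKM was 461 and 968 in liver and 1592 in E12.5 ysE. All 5 pluripotency and heart markers of cystic EBs were higher in clone JN than in either yolk sac layer. In clone A9 against liver 3 of these 5 were higher and 0 lower.

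Sequence around the start was compared with that of other genes. RefSeq windows from 250 bases before to 50 bases after the start were matched for 62 members (63 windows) and set beside 21263 windows of 17492 protein-coding genes. Some windows reach into the coding part at their 3′ end. Motifs were searched as letters on both strands. The CCAAT box was present in 85.7% of member windows and in 38.2% of all windows. TATAAA was present in 55.6% against 12.6%, and the octamer ATTTGCAT, a site for Pou2f1, in 22.2% against 1.66%. Histone classes differed: CCAAT was found in 25% of the H4 windows and in all windows of the other classes. The octamer was found in 7 H2A and 7 H2B windows and in none of H1, H3 or H4. Its matches lay on the gene's own strand in H2B windows and on the other strand in H2A windows. Windows of head-to-head genes overlap, so the same octamer was counted for both genes of some pairs. These were Hist1h2bk with Hist1h2ah, Hist1h2bg with Hist1h2ae, and Hist1h2ba with Hist1h2aa. Median GC content was 45.3% over member windows and 56.3% over all windows. Below are windows of GRCm38.p6, printed 5′ to 3′ on the gene's strand, with these motifs in capitals. The first 3 show an H1, an H3 and an H4 gene of high level, Hist2h2bb had the highest mean RPKM of all members, Hist3h2ba stood far higher in clone JN than in the other groups, and Hist1h2bk and Hist1h2ah are a head-to-head pair that reads 1 octamer in opposite directions.
Hist1h1a (chr13:23763418-23763717, strand +): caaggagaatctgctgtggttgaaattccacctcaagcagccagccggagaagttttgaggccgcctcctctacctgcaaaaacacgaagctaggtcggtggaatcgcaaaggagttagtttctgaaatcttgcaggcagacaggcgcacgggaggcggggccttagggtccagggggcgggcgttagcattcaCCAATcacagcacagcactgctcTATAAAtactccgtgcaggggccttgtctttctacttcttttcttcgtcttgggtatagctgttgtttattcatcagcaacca
Hist1h3e (chr13:23562336-23562635, strand -): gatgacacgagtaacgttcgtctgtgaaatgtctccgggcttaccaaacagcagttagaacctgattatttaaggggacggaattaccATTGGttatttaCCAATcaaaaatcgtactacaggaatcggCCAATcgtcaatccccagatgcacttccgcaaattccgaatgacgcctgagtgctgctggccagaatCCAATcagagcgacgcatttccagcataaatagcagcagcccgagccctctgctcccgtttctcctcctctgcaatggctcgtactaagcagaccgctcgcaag
Hist1h4d (chr13:23581318-23581617, strand +): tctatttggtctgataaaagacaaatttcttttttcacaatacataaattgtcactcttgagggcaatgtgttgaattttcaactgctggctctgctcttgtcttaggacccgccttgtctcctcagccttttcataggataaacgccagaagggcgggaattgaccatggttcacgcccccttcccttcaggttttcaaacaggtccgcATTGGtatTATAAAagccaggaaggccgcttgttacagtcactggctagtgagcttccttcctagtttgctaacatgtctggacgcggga
Hist2h2bb (chr3:96269450-96269749, strand +): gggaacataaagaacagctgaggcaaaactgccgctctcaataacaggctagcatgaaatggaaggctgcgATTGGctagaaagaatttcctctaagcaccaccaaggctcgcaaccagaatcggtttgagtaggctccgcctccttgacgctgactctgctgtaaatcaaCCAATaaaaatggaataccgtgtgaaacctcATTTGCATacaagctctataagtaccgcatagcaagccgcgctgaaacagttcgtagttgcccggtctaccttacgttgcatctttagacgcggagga
Hist3h2ba (chr11:58948661-58948960, strand +): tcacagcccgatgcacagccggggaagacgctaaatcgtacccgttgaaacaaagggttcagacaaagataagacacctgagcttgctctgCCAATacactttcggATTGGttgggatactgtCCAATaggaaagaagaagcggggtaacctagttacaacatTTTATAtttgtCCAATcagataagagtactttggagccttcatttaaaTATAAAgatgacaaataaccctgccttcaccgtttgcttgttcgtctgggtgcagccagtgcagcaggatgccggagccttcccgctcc
Hist1h2bk (chr13:22035571-22035870, strand +): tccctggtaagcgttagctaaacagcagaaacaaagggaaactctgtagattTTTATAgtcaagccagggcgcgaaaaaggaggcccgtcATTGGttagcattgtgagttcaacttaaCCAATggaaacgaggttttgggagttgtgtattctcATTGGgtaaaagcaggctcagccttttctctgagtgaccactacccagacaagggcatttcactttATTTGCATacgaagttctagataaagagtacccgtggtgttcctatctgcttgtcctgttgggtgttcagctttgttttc
Hist1h2ah (chr13:22035594-22035893, strand -): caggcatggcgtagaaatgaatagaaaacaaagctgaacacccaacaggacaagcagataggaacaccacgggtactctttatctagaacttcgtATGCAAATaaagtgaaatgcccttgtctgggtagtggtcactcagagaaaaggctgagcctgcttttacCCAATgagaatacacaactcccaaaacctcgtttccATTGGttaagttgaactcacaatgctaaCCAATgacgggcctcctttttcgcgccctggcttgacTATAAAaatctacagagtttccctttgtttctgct

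Among the 62 members with a matched window, which gave the strand, 10 H2A genes stood head to head with 10 H2B genes. All lay on chromosome 13, with starts 164 to 281 bases apart. Unmatched members were not examined for pairs, among them Hist1h2bc, next to Hist1h2ac, and Hist2h2be, next to Hist2h2ac on chromosome 3. Sharing a start region did not give equal levels. In the pair printed above, Hist1h2bk was higher than Hist1h2ah in all 11 libraries, with mean RPKM of 413 and 107. Hist1h2bl and Hist1h2ai went the other way, at 135 for the H2B gene and 207 for the H2A gene. Hist1h2ba and Hist1h2aa, a pair known from germ cells, had mean RPKM of 1.55 and 1.068.

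Member RNA made up 0.929% to 1.66% of all counts in the dUTP libraries. It was 0.974% and 1.29% for E9.25 ysE, 1.45% and 1.66% for mesoderm, and 1.014% (d10) and 0.929% (d15) for clone JN. The ScriptSeq libraries held 0.208% and 0.151% in clone A9 and 0.519% and 0.773% in liver, and E12.5 ysE held 0.434%. Each of these shares is of counts in a library, and a bulk sample cannot tell fewer cells in S phase from less RNA per cell. Median RPKM over the 68 members was 155 and 211 for E9.25 ysE, 212 and 275 for mesoderm, 160 and 155 for clone JN, 7.80 and 4.99 for clone A9, 19.0 and 29.3 for liver, and 41.96 for E12.5 ysE. No dUTP library fell as low as the highest ScriptSeq library. At least 10 reads were found for all 68 members in each dUTP library, for 61 and 59 in clone A9, and for 58 in all 11 libraries.

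**Figure D1:**
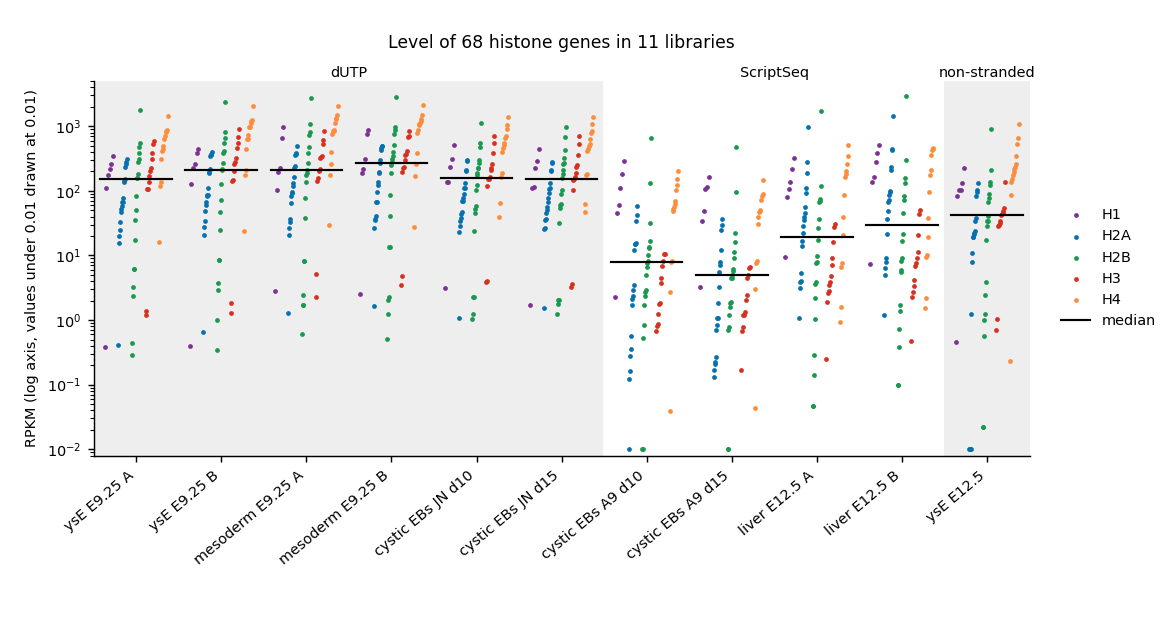
RPKM on a log axis for 68 members in each of 11 libraries, with points coloured by histone class, values under 0.01 drawn at 0.01, and a black line at the library's median. Medians of the 6 dUTP libraries lie between 155 and 275, those of the 4 ScriptSeq libraries between 4.99 and 29.3.

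RPKM depends on the length given to a gene. The length implied by counts and RPKM was shorter than 95% of the RefSeq span for 34 members, and for 33 of these it was a multiple of 3, as the length of a coding part is. Whether these are coding lengths, counted without the untranslated ends, was not tested. For 8 members the implied length was over 1.5 times the span, among them Hist1h1c, Hist1h1d, Hist1h1e and Hist4h4. By mean count Hist1h1d (45949.6) stood above Hist1h1a (35848.5), and Hist4h4 (28802) above Hist1h4f (28313.1). Levels of different members, and class shares built from them, are therefore only roughly comparable.

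Hist2h2bb was first in 8 libraries and Hist1h4d in 3, and the 5 leading members held 30.1% to 56.1% of the summed RPKM. Hist2h2bb stood at 1788 and 2365 RPKM in the E9.25 ysE libraries, 2771 and 2888 in mesoderm, 1104 and 987 in clone JN, 650 and 478 in clone A9, 1747 and 2974 in liver, and 903 in E12.5 ysE. Clone JN was below both yolk sac layers, and the liver libraries overlapped the dUTP libraries. Hist1h4d had 1435 and 2074 RPKM in the E9.25 ysE libraries, 2081 and 2147 in mesoderm, 1411 and 1379 in clone JN, 125 and 82.1 in clone A9, 207 and 442 in liver, and 1077 in E12.5 ysE.

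By mean RPKM over all 11 libraries, next among H4 genes were Hist1h4f (766) and Hist1h4k (705). For H1 the leading genes were Hist1h1a (424), Hist1h1b (367) and Hist1h1c (211), the last also made with a poly(A) tail. Hist2h2ac (440), Hist1h2ab (242) and Hist1h2ak (208) led among H2A genes, Hist1h2bb (445) and Hist1h2bk (413) followed Hist2h2bb, and Hist1h3e (431), Hist1h3c (336) and Hist1h3b (274) led among H3 genes. The order was not the same in every group. In clone JN, Hist1h2ai (300.2 and 276 RPKM) stood above Hist2h2ac (291 and 269), and Hist1h4k (1065 and 1068) above Hist1h4f (905 and 852). In liver, Hist2h2ac had 972 and 1418 RPKM and Hist2h2ab 284 and 438. Hist1h3b (30.2 and 50.02 RPKM) stood above Hist1h3e (3.54 and 7.52) there, and Hist1h1b (321 and 517) above Hist1h1a (218 and 386). Hist1h4b led the H4 genes in liver, with 506 and 459 RPKM. In other libraries a second count of the reads, per exon part, gave Hist1h4b 0.0033 to 0.21 of its transcript count. For Hist2h2ab it gave 0.052 to 0.24. Liver had no such count, so these liver levels are unchecked. In clone A9, Hist1h3b had 0.808 and 0.170 RPKM beside 10.6 and 6.45 for Hist1h3a. In E12.5 ysE, Hist1h1c (223 RPKM) stood above Hist1h1a (130). Since libraries of high level set the means, the order is mainly that of the dUTP libraries.

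Class shares of the summed RPKM were alike in the 6 dUTP libraries. H4 took 39.6% to 42.3%, H2B 22.8% to 26.6%, H3 13.4% to 17.0%, H2A 10.6% to 11.5% and H1 5.83% to 7.85%. In the ScriptSeq libraries H3 took only 1.47% to 1.88%. H1 reached 25.2% and 24.4% in clone A9 and 12.53% and 13.5% in liver, and H2A reached 27.8% and 29.8% in liver. The Hist2 cluster held 45.6% and 46.3% in liver, 28.3% and 29.7% in clone A9 and 10.2% to 14.3% in the dUTP libraries.

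**Figure D2:**
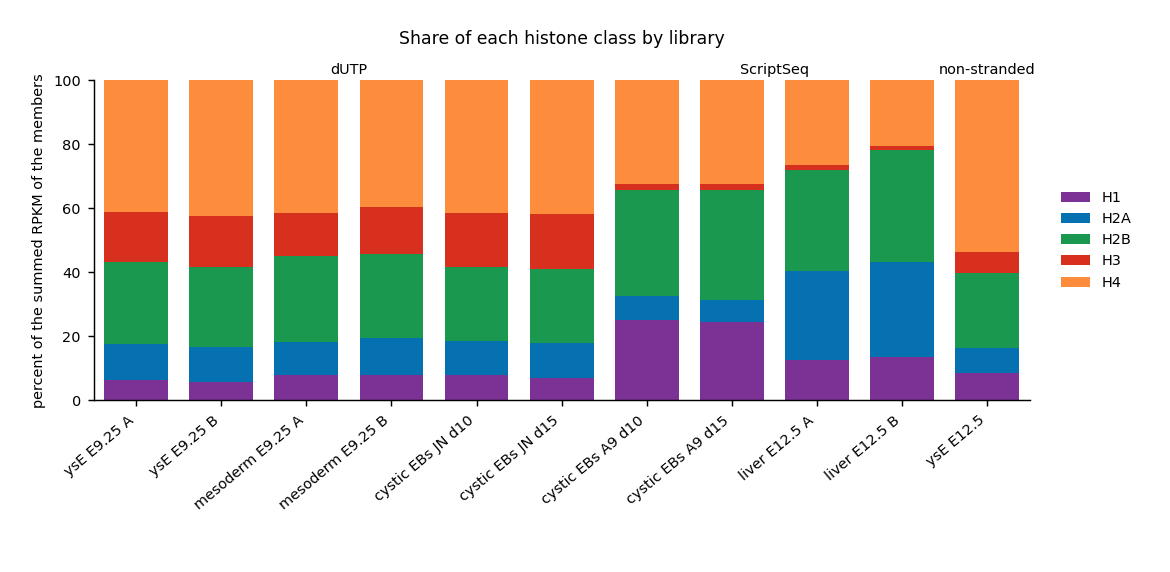
Stacked bars give the percent of the members' summed RPKM that each histone class took, 1 bar for each of 11 libraries. H3 takes 13.4% to 17.0% in the dUTP bars and 1.47% to 1.88% in the ScriptSeq bars.

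The gap between the clones was uneven over classes. At d10 the median ratio of JN over A9, in counts scaled to library totals, was 11.1 for 61 members with at least 10 reads in both, and at d15 it was 12.3 for 59. For H1 these ratios were 1.88 and 2.27, for H3 72.7 and 99.2. Hist1h3e had 701 and 706 RPKM in clone JN, 6.96 and 2.47 in clone A9 and 3.54 and 7.52 in liver. Other RNAs did not all follow one pattern over these libraries, and those given here were chosen after their values were seen. Rmrp, a short RNA without a poly(A) tail, had 47557 to 78077 RPKM in dUTP libraries, 2975 and 3176 in clone A9 and 156 and 209 in liver. Snord22, a small nucleolar RNA, had 2194 to 4811 RPKM in dUTP libraries, 4115 and 3363 in clone A9 and 286 and 267 in liver. H2afz, whose mRNA is polyadenylated, had 83.1 to 132 RPKM in dUTP libraries, 1.82 and 1.41 in clone A9 and 8.45 and 10.8 in liver, whereas H3f3b, also polyadenylated, had 142 to 331, 219 and 222, and 165 and 138. Between dUTP and ScriptSeq libraries, clone or tissue and chemistry cannot be told apart in these gaps. Clone A9 and liver shared ScriptSeq, so this does not hold for the gaps between them, whose cause was not tested.

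Fold changes below are from counts, scaled by TMM, a method that sets the bulk of transcripts equal between libraries, and come from the quasi-likelihood test of edgeR, with p-values adjusted after Benjamini and Hochberg over 24858 transcripts (threshold 5%). All 68 members passed the filter on low counts. TMM factors were 0.766 and 0.789 for ysE at E9.25, 0.987 and 0.990 for mesoderm and 1.15 and 1.17 for clone JN, so a ratio of RPKM and a fold change can differ. The first 3 comparisons share libraries with each other.

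Between the layers of the E9.25 yolk sac, 5 of the 68 members passed. In ysE against mesoderm 1 member was higher (21.5% of all transcripts were) and 4 were lower (21.8% of all transcripts), and 63 did not pass. The median log2 fold change was -0.12 over members and -0.05 over all transcripts. With libraries scaled to their totals only, 1 was higher and 18 (26.5%) lower, beside 13.9% and 29.7% of all transcripts, and the median of all transcripts was then -0.39. The count also depended on the fit: 14 members passed (3 higher, 11 lower) when the dUTP libraries were fitted alone, and 9 (3 higher, 6 lower) with DESeq2. Fewer were called without ysE A or mesoderm A, and more without either liver library, each of which leaves 1 library in a group. Shares of all transcripts in these other fits are not given here, so the counts cannot be set beside them.

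The linker histone genes supplied 2 of the 4. Hist1h1t, the testis H1 gene, had 0.386 and 0.391 RPKM in ysE and 2.87 and 2.51 in mesoderm, with a log2 fold change of -2.46 ± 0.41 (SE, adjusted p = 0.0011, edgeR). Hist1h1a had 263 and 383 RPKM in ysE against 992 and 881 in mesoderm, a log2 fold change of -1.22 ± 0.32 (adjusted p = 0.013, edgeR), which did not pass without ysE A (adjusted p = 0.10, edgeR) or without mesoderm A (0.057). Every mesoderm library was above every ysE library for both genes, which the rule for naming called members required. Hist1h2bf had 35.3 and 47.5 RPKM in ysE and 138 and 191 in mesoderm (log2 fold change -1.68 ± 0.31, adjusted p = 0.0019, edgeR). Hist2h3c2, a gene of low level, had 1.396 and 1.848 against 5.08 and 4.74 (-1.28 ± 0.31), and did not pass without ysE A (adjusted p = 0.059, edgeR). Hist3h2a alone was higher in ysE, at 52.2 and 67.7 RPKM against 36.4 and 41.6 (0.94 ± 0.21, adjusted p = 0.0052, edgeR). This difference did not pass without ysE B (adjusted p = 0.054, edgeR) or without mesoderm A (0.053). Hist1h4h was nearest to no change, at 0.01 ± 0.21, and none of the 13 H4 genes passed.

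Erythroid RNA moved with this comparison. Summed RPKM of 6 erythroid markers was 522 and 604 in ysE and 25238 and 20335 in mesoderm, none of them at 0, and their part in the histone result was not tested.

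Against E9.25 ysE, clone JN was lower for many members. Of the 68, 31 were lower (26.7% of all transcripts were) and 6 were higher (28.2% of all transcripts). The median log2 fold change was -0.68 over members and 0.10 over all transcripts. This split depended on scaling: with library totals only, 13 members (19.1%) were higher and 8 (11.8%) lower, beside 43.3% and 14.6% of all transcripts, whose median was 0.68. Without ysE B or without JN d10, which leaves 1 library in a group, fewer members were called. The shares of all transcripts called in those fits are not given here. Erythroid markers were lower for 5 of 6, with a median log2 fold change of -2.98, and their part was not tested.

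Against mesoderm, clone JN was lower for 35 members (18.7% of all transcripts were) and higher for 3 (16.4% of all transcripts). The median was -0.79 over members and -0.01 over all transcripts. With library totals only, 20 members (29.4%) were lower and 4 (5.88%) higher, beside 13.4% and 22.4% of all transcripts, whose median was 0.22. Fewer members were called without mesoderm A, mesoderm B, JN d10 or JN d15, each of which leaves 1 library in a group. Whether all transcripts lost calls alike in those fits is not given here. Erythroid markers were lower in JN here too, all 6 of them with a median log2 fold change of -7.62, and their summed RPKM was 40.6 and 84.9 in JN beside 25238 and 20335 in mesoderm. Of 5 mesoderm and vessel markers 4 were lower, with summed RPKM of 33.2 and 130 against 403 and 399. No marker was at 0, and their part in the result was not tested. All 13 H4 genes except Hist1h4m had a log2 fold change below 0, and 10 passed. Among H3 genes 3 of 12 passed, all lower.

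Hist3h2ba, an H2B gene of the small Hist3 cluster, had the highest log2 fold change of all 68 members in clone JN over either layer. It had 59.2 and 62.0 RPKM in clone JN, 2.34 and 2.92 in ysE and 1.73 and 2.05 in mesoderm. Clone A9 had 2.88 and 1.86 RPKM, liver 0.142 and 0.380, and E12.5 ysE 1.23. Both JN libraries were far above the other 9, which overlapped in part. The log2 fold change of JN was 4.05 ± 0.38 over ysE (adjusted p = 3.9e-05, edgeR) and 4.84 ± 0.39 over mesoderm (adjusted p = 6.2e-05, edgeR). Hist3h2bb-ps was placed in the same cluster by its symbol alone. It had 24.3 and 32.1 RPKM in clone JN, 3.26 and 3.82 in ysE and 2.46 and 2.25 in mesoderm. Its log2 fold changes were 2.51 ± 0.39 and 3.42 ± 0.40. Hist3h2a, the third gene of the cluster, had 68.8 and 77.0 RPKM in clone JN, and its difference from mesoderm (0.74 ± 0.21, adjusted p = 0.021, edgeR) did not pass when any 1 of the 4 libraries compared was left out.

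**Figure D3:**
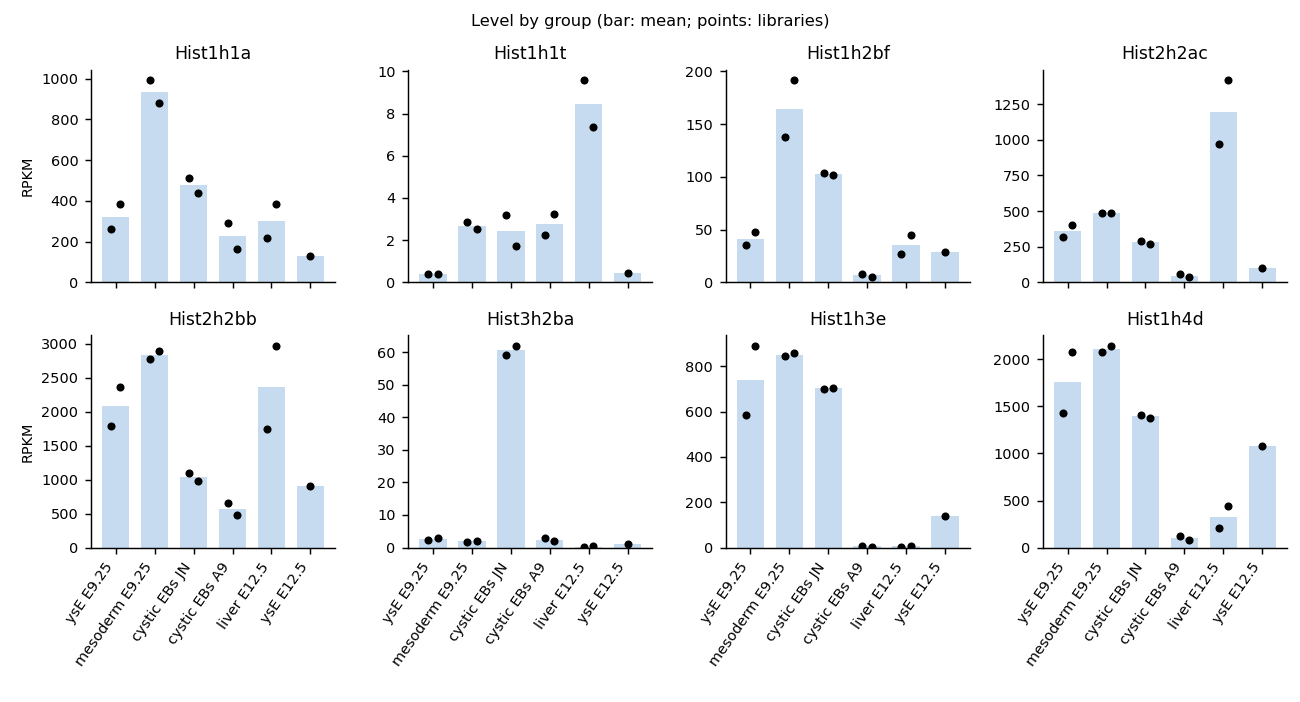
RPKM of 8 members by group, with bars for the mean and points for the libraries, on an axis of its own for each gene. Hist3h2ba stands at 59.2 and 62.0 in clone JN and at 2.92 or less in all other groups.

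Other members higher in JN than in ysE were Hist1h1t (3.19 and 1.72 RPKM against 0.386 and 0.391), Hist2h2be, Hist1h2bp and Hist1h2bf. Hist2h2be, known to be made with a poly(A) tail as well, stayed low in every library, at 0.291 to 1.37 RPKM. Among those lower, Hist4h4 had 65.5 and 62.7 RPKM in JN, 121 and 176 in ysE and 176 and 167 in mesoderm. Its log2 fold changes were -1.69 ± 0.21 (adjusted p = 0.00018, edgeR) and -1.58 ± 0.21 (adjusted p = 0.00068, edgeR). Hist1h4i had 166 and 177 RPKM in JN against 311 and 442 in ysE (-1.61 ± 0.21). Hist2h2bb, the gene of highest level, fell by 1.59 on the log2 scale against mesoderm. Hist1h2bq and Hist1h2br had the lowest log2 fold changes, -2.24 each against ysE and -2.50 each against mesoderm, but had equal transcript counts in every library and count as 1 measurement. In all, 8 members had a row whose counts lay within 10% of a row of another member (near copies), and without them 26 of 60 were lower in JN than in ysE and 30 of 60 lower than in mesoderm.

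**Figure D4:**
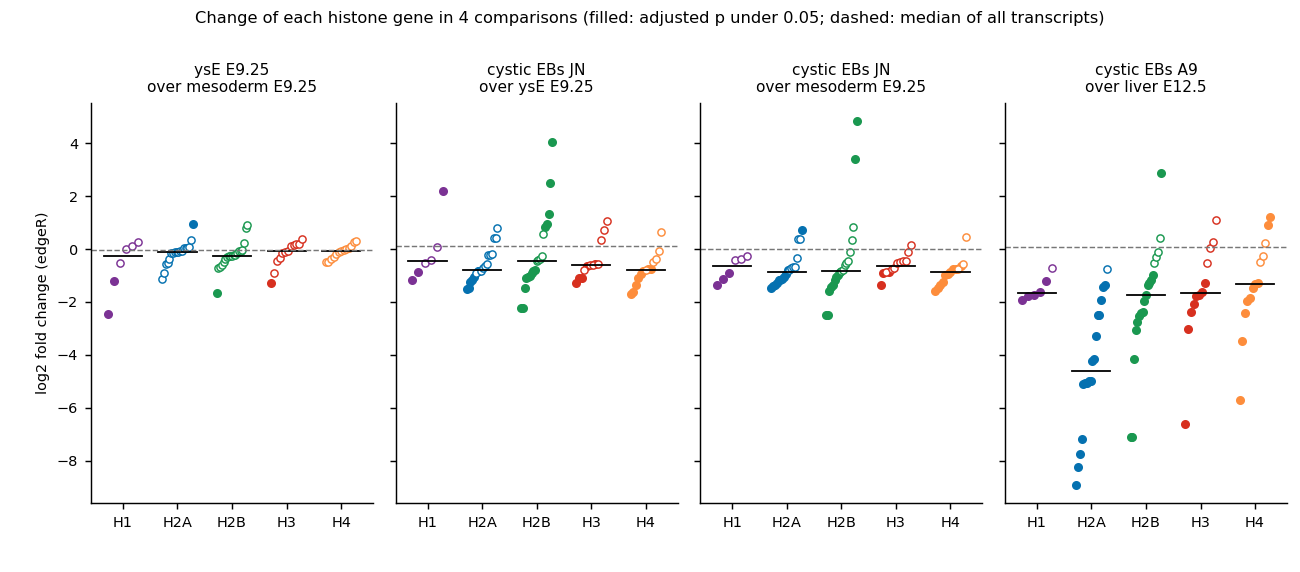
Log2 fold change of each member (edgeR) in 4 comparisons, by histone class, with filled points for an adjusted p under 0.05, black lines for class medians and a dashed line for the median of all transcripts. Most points lie near 0 in the first panel and below it in the last, where the H2A median is -4.61.

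Of the 4 comparisons, clone A9 against liver had the median farthest from 0. Clone A9 was lower for 52 of 68 members (23.5% of all transcripts were) and higher for 3 (25.8% of all transcripts). The median log2 fold change was -1.81 over members and 0.09 over all transcripts. Reads of Rn45s, the ribosomal RNA precursor, made up 2.94% and 7.35% of counts in A9 and 0.497% and 0.484% in liver, and 1.86% to 3.13% in the dUTP libraries. Their part in the result was not tested. H2A genes stood out, with 17 of 18 lower and a median of -4.61, beside -1.67 for H1, -1.75 for H2B, -1.68 for H3 and -1.32 for H4. These differences between classes were not tested.

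Several H2A genes were close to absent from clone A9. Hist1h2an had 2.09 and 0.845 RPKM in A9 and 112 and 234 in liver (log2 fold change -7.17 ± 0.48, adjusted p = 8.1e-06, edgeR). Hist2h2aa2 had 0.282 and 0.267 against 39.0 and 100 RPKM, and its near copy Hist2h2aa1 0.356 and 0.212 against 28.1 and 72.1. Hist1h2ad had 0 and 3 transcript counts in the A9 libraries and 1695 over both liver libraries, while a second count of the same reads, per exon part, gave it 16 and 13 in A9. Hist1h2bq and Hist1h2br had 0 counts in A9 against 25 in liver, which is at least 6.77-fold lower with a floor of 3 counts over the group. Hist2h2ac showed a smaller gap, with 57.9 and 36.1 RPKM in A9 and 972 and 1418 in liver. The last values were also above every dUTP library, where it reached 490.

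Hist3h2ba was again among the members that were higher, with a log2 fold change of 2.90 ± 0.42 (adjusted p = 0.00043, edgeR). Hist1h4h had 69.3 and 47.1 RPKM in A9 and 21.0 and 19.4 in liver (1.22 ± 0.22). Hist1h4n, which the table places at 2 loci, had 2.69 and 3.02 against 0.918 and 1.55, and its sign turned to -0.66 when the transcripts of the symbol were summed. It did not pass without A9 d10, A9 d15 or liver A (adjusted p = 0.055 to 0.20, edgeR). Erythroid markers were lower in A9 as well, all 6 of them, with summed RPKM of 32.4 and 6.71 against 305 and 362 in liver, none at 0, and their part in the result was not tested.

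Between d10 and d15 of differentiation no member passed, of 22452 transcripts tested in the 4 cystic EB libraries. The share called was 0% of all transcripts with edgeR, and 1.35% had an unadjusted p under 0.05, among them 0 members. DESeq2 called 0 members too. Each day held 1 library of either clone, and the biological coefficient of variation was 0.526. The clone was left out of these fits, so differences between clones counted as spread and a change with day was hard to call. With a block on the clone no member passed either. Within the clones, 59 members had at least 10 reads in all 4 libraries. Of these 47 were lower at d15 in JN and 47 in A9, 40 of them in both, with median log2 ratios of -0.16 and -0.46. With 1 library a day in each clone these ratios have no test. The same ratios over all transcripts are not given here, so the members cannot be set beside them.

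**Figure D5:**
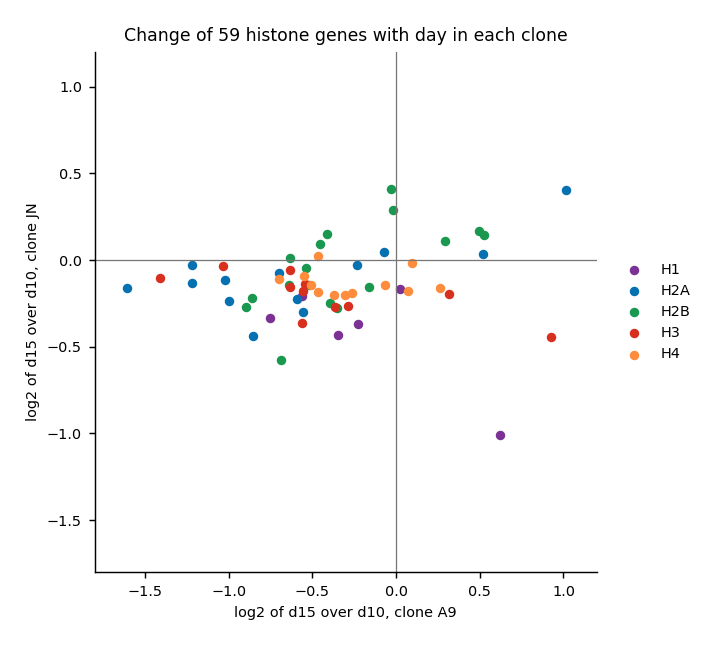
Log2 ratio of d15 over d10 for 59 members, clone A9 on the horizontal and clone JN on the vertical axis, coloured by histone class. Of the points, 40 lie at the lower left, where both clones were lower at d15.

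Genes that make and process histone mRNA were read beside the members. Of 14 genes for histone mRNA synthesis and processing, 1 (7.14%) was higher in ysE than mesoderm and 0 lower, beside 21.5% and 21.8% of all transcripts. For JN against ysE 1 was higher and 1 lower (7.14% each, beside 28.2% and 26.7%), and against mesoderm 2 (14.3%, beside 16.4%) and 0. Against liver, A9 was higher for 2 (14.3%, beside 25.8%) and lower for 5 (35.7%, beside 23.5%). With library totals only, the counts higher and lower became 1 and 3 for ysE against mesoderm (beside 13.9% and 29.7% of all transcripts), 4 and 0 for JN against ysE (43.3% and 14.6%), 3 and 0 for JN against mesoderm (22.4% and 13.4%) and 2 and 3 for A9 against liver (29.2% and 20.7%). The shares of all transcripts under that scaling are the same for the lists that follow. Slbp had 52.2 and 42.9 RPKM in A9 and 108 and 156 in liver, a log2 fold change of -1.77 ± 0.19 (adjusted p = 8.4e-05, edgeR). Npat had 9.76 and 8.62 RPKM against 4.0 and 4.90 (0.75 ± 0.18, adjusted p = 0.0075, edgeR). Neither passed in the other comparisons. Zfp473, which encodes the U7 particle partner ZFP100, was higher in ysE than in mesoderm (2.18 ± 0.28), in JN than in mesoderm (1.497 ± 0.27) and in A9 than in liver (1.88 ± 0.28). Pou2f1, the octamer binding factor, was higher in JN than in ysE (0.96 ± 0.17) and mesoderm (0.79 ± 0.17).

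Of 20 S-phase genes, 17 (85%) were lower in A9 than in liver and 0 higher, beside 23.5% of all transcripts lower. In JN 11 (55%) were lower than in mesoderm and 0 higher, beside 18.7% of all transcripts lower, and with library totals only 6 were lower and 0 higher, beside 13.4% of all transcripts lower. Against ysE, 7 (35%) were lower in JN and 1 higher, beside 26.7% of all transcripts lower, and with library totals only this became 4 lower and 4 higher, beside 14.6% and 43.3%. Between ysE and mesoderm 2 were higher and 2 lower, beside 21.5% and 21.8% of all transcripts, and with library totals only 1 and 8, beside 13.9% and 29.7%. Mcm5, a subunit of the replicative helicase, had 62.5 and 45.9 RPKM in A9 and 187 and 232 in liver (-2.26 ± 0.25). Ccne1, the cyclin that drives entry into S phase, had 40.01 and 49.98 RPKM in ysE, 21.5 and 23.7 in mesoderm and 15.1 and 13.1 in JN. It was higher in ysE than in mesoderm by 1.31 ± 0.23 and lower in JN than in ysE by 2.14 on the log2 scale.

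Of 11 replacement variants, 6 (54.5%) were higher in JN than in ysE and 0 lower, beside 28.2% of all transcripts higher. With library totals only these counts stayed at 6 and 0, beside 43.3% of all transcripts higher. Against mesoderm 3 (27.3%) were higher, beside 16.4% of all transcripts, and 1 was lower, with a median log2 fold change of -0.07. With library totals only 3 were higher and 0 lower there, beside 22.4% of all transcripts higher. H1fx was higher by 4.07 ± 0.52 and H2afy2 (macroH2A2) by 4.02 ± 0.44 against ysE. In ysE against mesoderm 0 were higher and 4 (36.4%) lower, beside 21.8% of all transcripts lower, and with library totals only 0 and 6. In A9 against liver 2 (18.2%) were higher and 4 (36.4%) lower, beside 25.8% and 23.5% of all transcripts. H2afz was lower by 2.88 on the log2 scale. Of 16 histone chaperone genes, 2 were higher and 2 lower in ysE than mesoderm (beside 21.5% and 21.8% of all transcripts). In JN 2 (beside 28.2% of all transcripts) were higher and 6 (beside 26.7%) lower than in ysE, and 0 higher and 3 (beside 18.7%) lower than in mesoderm. In A9 2 (beside 25.8%) were higher and 3 (beside 23.5%) lower than in liver. With library totals only, the counts became 2 higher and 3 lower for ysE against mesoderm, 5 and 0 for JN against ysE and 3 and 2 for JN against mesoderm. Asf1b, which hands H3 and H4 to the replication fork, was lower in JN and in A9, by 1.26 against ysE, 1.62 against mesoderm and 1.57 against liver on the log2 scale.

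Of 114 other short RNAs without a poly(A) tail, 56 (49.1%) were higher and 6 (5.26%) lower in A9 than in liver, beside 25.8% and 23.5% of all transcripts. In ysE 0 were higher and 7 (6.14%) lower than in mesoderm, beside 21.8% of all transcripts lower. In JN 5 (4.39%) were higher and 10 (8.77%) lower than in ysE, beside 28.2% and 26.7%, and 2 (1.75%) and 17 (14.9%) than in mesoderm, beside 16.4% and 18.7%. With library totals only, the counts were 0 and 15 for ysE against mesoderm, 11 and 2 for JN against ysE and 2 and 11 for JN against mesoderm.

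Histone H3 trimethylated at lysine 4 (H3K4me3), a mark of active promoters, was mapped in 1 sample of whole E12.5 VYS. Of 67 members with a gene model, 60 (89.6%) had 1 of 22343 peaks within 1 kb, as had 64.2% of 21900 protein-coding genes. These were 40 different peaks, since members lie close together. Best scores, -10 log10 of the peak caller's p, had a median of 1691 for members and 2803 for all genes with a peak. No peak lay near the germ-cell pair Hist1h2aa and Hist1h2ba, nor near Hist1h2ao, Hist1h2ap, Hist1h2bq, Hist1h2br and Hist1h4n, the last 5 being near copies of other members as defined above. For Hist1h4n this held only for another row of its symbol. The row used for its levels had 30683 counts in ysE E9.25 A, where Hist1h4m had 781. Hist3h2ba had the lowest score among members with a peak, 96.6.

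DNA methylation could be read at 13 members outside chromosome 13, in single bisulfite libraries of the 2 reciprocal crosses of FVB and CAST for each tissue. Each library held only 0 to 13 CpG values on chromosome 13, of 3728717 to 5542839 in all. The Hist1 cluster could therefore not be read, and the values cover the minor clusters only. Over the gene and 1 kb to either side, loci with at least 5 calls (reads summed over CpGs, so that a read over several CpGs counts several times) had a median of 34.5% and 38.1% methylated calls in d15 cystic EBs, 6.88% and 38.5% in liver and 26.1% and 6.07% in E12.5 ysE, with 6 to 75 calls a locus. Over all genes, each taken whole with 1 kb to either side, the medians were 64.9% to 85.2%. Most members are short, so their windows lie close to the start, while those of long genes are mostly gene body. The windows are therefore not alike, and the gap was not tested. Hist2h2bb had 0 of 15 methylated calls in 1 EB library. Hist3h2ba had 82.6% of 46 calls and 48.7% of 39 in EBs, 45.1% of 51 and 33.3% of 27 in liver, and 50% of 16 in 1 ysE library. In the first liver library 0 of 13 calls over the gene itself were methylated, so the methylated calls there lay in the flanks. The crosses differed as much as the tissues, and the EBs were made from other clones than those of the RNA-seq. Calls of 1 read are not independent, so that the number of reads behind a value is unknown and no interval is given. Windows of neighbouring Hist2 genes overlap.

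The exon-part count was given for 5 libraries. Of 227 values with at least 100 transcript counts, 182 agreed within 10%. Among the exceptions, Hist1h4b had 0.0033 to 0.21 of its transcript count, Hist2h2ab 0.052 to 0.24, and Hist2h3b and Hist2h2aa1 had 0. Clone A9 held the values of at least 2 times the transcript count, 7.38 and 8.54 for Hist1h2bk and 2.34 and 2.12 for Hist1h4d, which stood at 0.995 to 0.996 in the other 3 libraries. Hist1h2bq had 0.086 to 0.33 and Hist1h2br 1.32 to 1.71, so this count did not hold them equal. For Hist3h2ba the lowest share was 0.98.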

How the data were processed

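RNA-seq, bisulfite and H3K4me3 data were analysed from the deposited files. Per the paper's methods, GSNAP was the aligner. The authors deposited raw counts for each RefSeq transcript and RPKM values made with RSeQC and custom scripts. How reads that fit several histone genes were placed is not given in the sources used here. For methylation the authors deposited the percent of methylated reads per CpG and the read number, called with BisSNP, and for H3K4me3 the peak score of MACS 1.4.2. Coordinates are those of mm10 (GRCm38).

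Samples were grouped by the labels into 6 RNA-seq groups. Counts of all 11 libraries were fitted in R 4.3.3 with edgeR 4.0.16 (filterByExpr, TMM, quasi-likelihood test, Benjamini-Hochberg adjustment at 5%), and days in the 4 cystic EB libraries alone. DESeq2 1.42.0 was an alternative. The common biological coefficient of variation was 0.277. In the fit of all 11 libraries, p-values rest on 1 estimate of spread per transcript, shared by the 6 groups. It combines differences between pooled litters of E9.25 ysE, mesoderm and liver with those between days in both clones. P-values therefore do not measure the spread of the groups compared alone. On simulated data the step called 67% to 79% of genes changed 4-fold and 10% to 16% of those changed 2-fold. Each simulation changed 100 genes by either fold, among 23881 to 23932. In the 4 real comparisons 35.1% to 54.9% of transcripts were called, so their adjusted threshold was less strict. The simulated shares therefore do not describe these comparisons. For the days, the clone pairs the libraries, as each letter is 1 ES cell line in 1 library chemistry.

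The members and gene lists were chosen with earlier results of these data known. Named members are the 3 of highest mean RPKM in each class, the 4 called members that rose and the 4 that fell most with non-overlapping libraries, the 2 nearest to no change, germ-cell and polyadenylated members, the minor clusters and, from each other list, up to 4 called genes. Further genes, such as Hist1h4b, were named after their values were seen. One exon-part file held only zeros and was not used. Alternatives were other scalings, filters, transcript sums, thresholds, groupings and leaving out each library. Promoter windows are from RefSeq. Values other than the fits were computed in Python 3.11.15 with pandas 2.3.3.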

Additional observations from a re-analysis of the deposited data

Results flagged for a closer look

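Hist1h1t, the testis H1 gene, moved in opposite directions with day in the 2 clones. The log2 ratio of d15 over d10 was -1.01 in clone JN and 0.62 in clone A9, each from 1 library a day. It was chosen because each ratio, from TMM-scaled counts, exceeded 1.5-fold. From counts scaled to library totals the ratios were -0.98 and 0.51, the second under that limit. The difference between the clones was not tested, and clone and library chemistry cannot be told apart.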

How the results depend on the processing

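Counts of members that passed changed by more than 1.5 times under several settings, and the cause was not tested. Except with library totals only, the shares of all transcripts called under these settings are not given here. A changed count therefore cannot be read as a change of the members alone. For ysE against mesoderm (5 called), library totals only gave 19, DESeq2 9, fitting the dUTP libraries alone 14, and leaving out 1 library 3 to 8. A replicate block on the letters A and B gave 15, of which 14 were lower. Whether a letter marks the same litter in both layers is not given in the sources used here. The correlation of deviations at the same letter was -0.09 over 24858 transcripts, with 2 pairs. In counts scaled to library totals 67 of 68 members were higher in B than in A in ysE and 56 in mesoderm. In liver, a tissue of another stage, 56 of 65 members with at least 10 reads in both libraries were higher in B too. The share of all transcripts higher in B is not given here. For the days the replicate block on the clone left the count at 0, with 3 members at an unadjusted p under 0.05, and leaving out 1 library gave 0 to 0. For JN against ysE (37), library totals only gave 21, all 4 cystic EB libraries as 1 group 7, a 1% threshold 19 and leaving out 1 library 16 to 43. For JN against mesoderm (38) the same settings gave 24, 5, 16 and 16 to 45. For A9 against liver (55), 1 cystic EB group gave 11, of which 6 were higher, and leaving out 1 library 52 to 56. In that group Hist1h2ad turned to 0.97 (adjusted p = 0.70, edgeR), and Hist1h4n turned to -0.66 when transcripts were summed. Ratios of the summed RPKM were 0.732 for ysE over mesoderm, 0.804 for JN over ysE and 0.589 for JN over mesoderm, and with TMM-scaled counts 0.930, 0.573 and 0.532, while as shares of counts the last was 0.626. Members with at least 100 reads in all 11 libraries numbered 36, against 58 with at least 10. Median methylation in cystic EBs (CxF, the CAST by FVB cross) was 29.7% at 10 calls, 50% at 20 calls and 9.09% without flanks, in cystic EBs (FxC) 42.9% and 45.9% at 10 and 20 calls, and without flanks 0.0% in ysE (CxF and FxC) and liver (CxF). In ysE it was 10.8% (FxC) at 20 calls.

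In A9 d15, 9 members had fewer than 10 reads. With 2 libraries a group changes of 2-fold were rarely called on simulated data, where far fewer genes differed than in the real comparisons.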
